A study of Camponotus floridanus with 3 samples.

Results

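Of the 16701 numbered transcripts of the Florida carpenter ant, Camponotus floridanus, 65 were abundant in a queen and nearly silent in both workers sequenced beside her. They were chosen by 3 deposited values each: at least 20 RPKM in the queen and under 0.5 RPKM in worker 1 and in worker 2. RPKM is the number of reads per kilobase of transcript and per 1000000 reads of the library. The values of the 65 in queen and workers are therefore a description, and no test was made of that difference.

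The 3 libraries were poly(A) RNA-seq from single whole bodies of 1 queen and 2 workers, sampled untreated from laboratory colonies with a queen. No genotype, agent or age is given for any of them. One worker was a major and one a minor, the large and the small worker type. The labels do not say which is which, and the workers carry the replicate numbers 1 and 2. With 1 queen, nothing measures how much queens vary, and the spread given for workers comes from 2 animals of different types. Whole-body RNA sums every tissue, so more cells of a type and more RNA per cell cannot be told apart.

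In ants the queen is the egg layer. Her ovaries hold the germ line, in which nurse cells load growing oocytes with RNA and protein, and follicle cells that build the eggshell, while the fat body supplies yolk protein. Workers of this species have ovaries but seldom lay while a queen is present, so transcripts of egg production are among those that can separate the castes. RefSeq's genes of assembly Cflo_v7.5 matched 0 of the IDs, and the deposited table gives no names. The members are therefore called by ID, no role is given to any of them, no sequence is shown, and marker genes of ovary or other tissues could not be examined.

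The libraries were of unequal depth and composition. The steps of the RPKM values gave a read total of 16914235 for the queen, while worker 1 had 6688533 and worker 2 had 13773937. The top 20 features took 22.0% of the queen's summed RPKM, 70.0% of worker 1's and 40.7% of worker 2's. Size factors by the median of ratios, which measure the level of a typical transcript, were 2.55, 0.290 and 1.27 in that order. A transcript of typical behaviour thus already read higher in the queen and lowest in worker 1, whose values at or near 0 carry the least depth. The part of this difference in the members' values was not tested beyond the scalings given here.

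The 65 members were 1.62% of the 4002 numbered transcripts with at least 20 RPKM in the queen, and 0.389% of all numbered transcripts. In the queen they lay between 20.3 and 598 RPKM with a median of 38.1, close to the median of 38.3 over the 4002. By their queen level alone the members did not stand out. In worker 1 they lay between 0 and 0.496 RPKM with a median of 0.113, against a median of 3.16 over the 4002. In worker 2 they lay between 0 and 0.492 RPKM with a median of 0.180, against 12.5 over the 4002. Summed over members, the level came to 3683 RPKM in the queen, against 10.5 for worker 1 and 11.6 for worker 2, which is 0.970% of the queen's RPKM sum and 0.0019% and 0.00284% of the workers'.

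**Figure D1:**
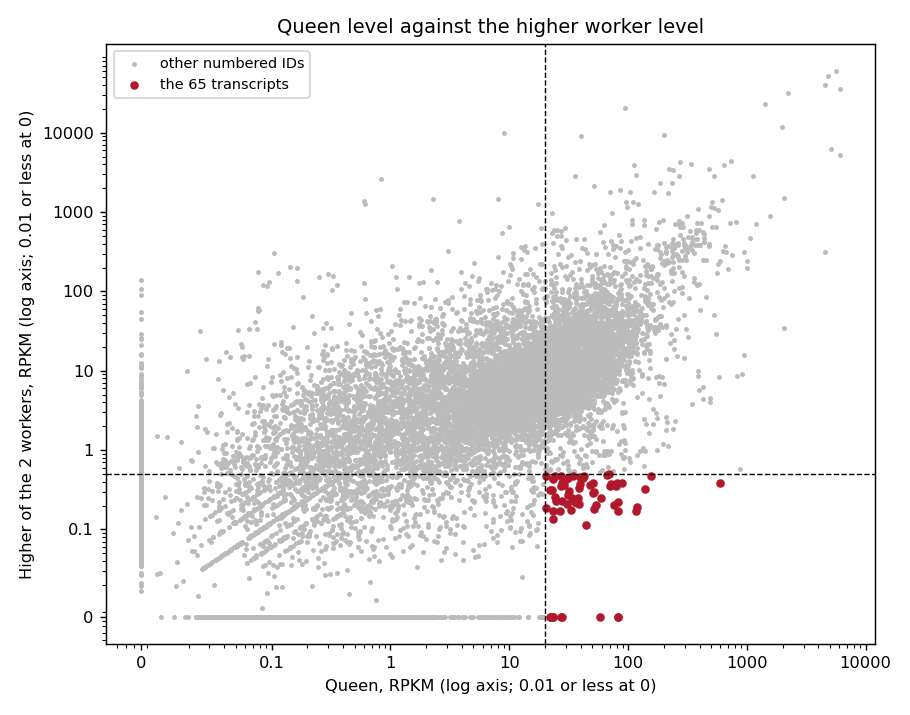
Each point is a numbered transcript, with its level in the queen on the horizontal axis and the higher of its worker levels on the vertical axis, both in RPKM on log axes. Red points are the 65 members in the corner cut off by the dashed lines at 20 and 0.5 RPKM, and most grey points beyond 20 RPKM in the queen lie far above that corner.

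The queen stood at least 4-fold above both workers in 25.4% of the 9600 features whose mean reached 1 RPKM. That count includes all 65 members, a number that the rule fixes. At least 40-fold, the gap the rule demands, was met by 2.86% of the 9600. On the log2(RPKM + 1) scale the queen exceeded the workers' mean by a median of 5.03 over the members, with a range from 4.14 to 8.99, against 1.60 over the 9600. After median-of-ratios scaling these medians were 3.58 and -0.00095, and the queen was at least 4-fold above both workers in 8.23% of the 9600.

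The list itself moved with the scaling and with each worker. After median-of-ratios scaling 13 transcripts met both thresholds, 12 of them among the 65, and the lowest ratio of a member's queen level to its higher worker level was 4.90, against 43.1 as deposited. With worker 2 left out the list held 366 transcripts, and with worker 1 left out 90.

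The share of members was similar over most of the queen's range. From 20 to 50 RPKM, 41 of 2627 transcripts were members (1.56%), from 50 to 100 RPKM 19 of 922 (2.06%), and from 100 to 200 RPKM 4 of 266. Above 200 RPKM 1 of 187 was a member (0.535%). The strongest transcripts of the queen were thus mostly present in the workers too: those above 200 RPKM had a median of 179 RPKM in worker 1 and 281 in worker 2.

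The 10 members highest in the queen are given here by their values. Cflo_09871 was at 598 RPKM in the queen, against 0.382 for worker 1 and 0 for worker 2, and ranked 41 among all features of the queen. The queen gave 7923 reads, worker 1 gave 2 and worker 2 gave 0. This was the only member above 200 RPKM in the queen. There it stood 1567-fold above worker 1 (95% interval 434 to 12938) and at least 2151-fold above worker 2, where 0 reads were set at 3.

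Cflo_15492 was at 157 RPKM in the queen, against 0 for worker 1 and 0.468 for worker 2. Its 411 queen reads stood against 1 read in worker 2, since its recovered length was only 155 bases. Cflo_02441 was at 138 RPKM in the queen, against 0.320 for worker 1 and 0.0934 for worker 2. It was one of the better measured members, with 5447 queen reads against 5 from worker 1 and 3 from worker 2. The queen was 431-fold above worker 1 (184 to 1327) and 1479-fold above worker 2 (506 to 7172).

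Cflo_06606 was at 119 RPKM in the queen, against 0 for worker 1 and 0.192 for worker 2. Cflo_15955 was at 117 RPKM in the queen, against 0 for worker 1 and 0.172 for worker 2. Both were represented by 1 read in worker 2 and none in worker 1. Cflo_14988 was at 89.3 RPKM in the queen, against 0.387 for worker 1 and 0 for worker 2, the reverse arrangement, again from 1 worker read. Cflo_08141 was at 83.1 RPKM in the queen, against 0.170 for worker 1 and 0.165 for worker 2. Cflo_10284 was at 82.8 RPKM in the queen, against 0.0913 for worker 1 and 0.222 for worker 2. In these last members both workers showed a trace, of 1 and 2 reads for Cflo_08141 and 1 and 5 for Cflo_10284. Cflo_08542, at 82.9 RPKM in the queen, and Cflo_02915, at 82.1, were at 0 in both workers.

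**Figure D2:**
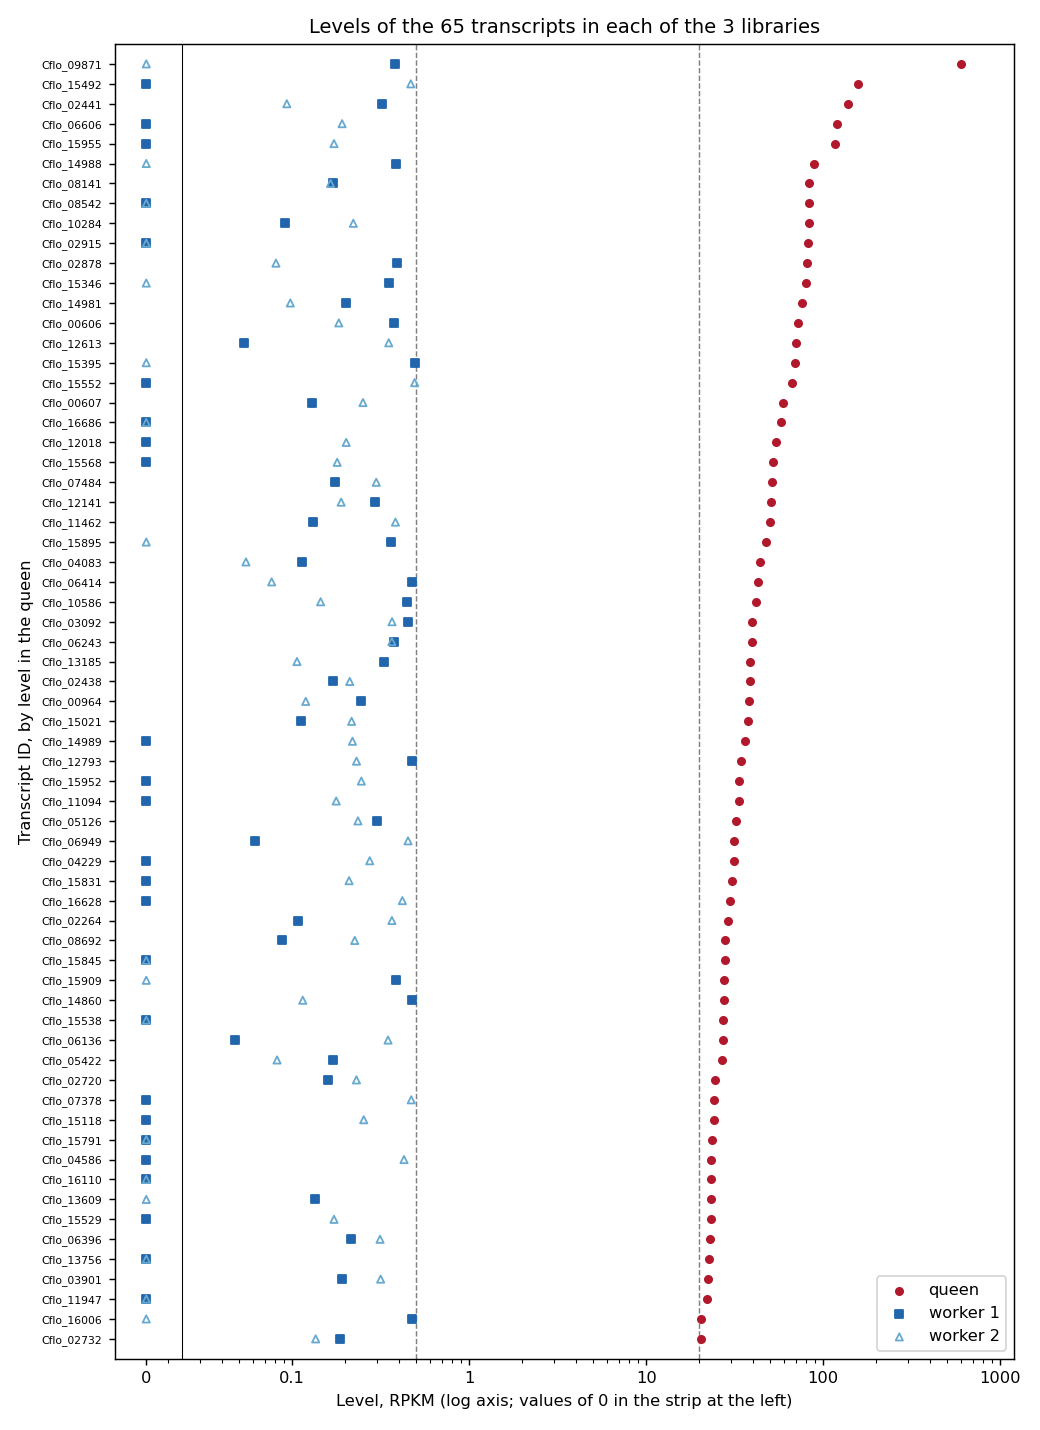
The level of each of the 65 members in RPKM on a log axis, with 1 row per transcript in the order of the queen's level; circles are the queen, filled squares worker 1 and open triangles worker 2, and values of 0 stand in the strip at the left. Dashed lines mark 0.5 and 20 RPKM; the queen runs from 20.3 to 598 RPKM and no worker value exceeds 0.496.

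In the plain sense 9 of the 65 members were silent, with a value of 0 in both workers. A further 16 were at 0 in worker 1 alone and 8 in worker 2 alone, and 32 were above 0 in both. Worker 1 was at 0 in 38.5% of the members and worker 2 in 26.2%. In the 395 transcripts with both workers under 0.5 RPKM and 1 to 20 RPKM in the queen these shares were 65.6% and 32.7%. Over all numbered transcripts they were 40.8% and 27.9%. Zeros were thus not more frequent in the members. Of the 9, the highest in the queen were Cflo_08542 and Cflo_02915, followed by Cflo_16686 at 57.8 RPKM, Cflo_15845 at 27.9 and Cflo_15538 at 27.3. Cflo_16686 had a recovered length of 134 bases and 131 reads in the queen. With 0 reads set at 3 its queen level was at least 17.3-fold that of worker 1 and at least 35.6-fold that of worker 2. For 6 of the 9 members, Cflo_08542 and Cflo_02915 included, a value in the queen alone did not settle the length, so no reads and no bound are given.

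For the 59 members with a recovered length the queen held 73183 reads, worker 1 116 and worker 2 281. Single members had from 52 to 7923 reads in the queen with a median of 847. Worker 1 had 0 reads in 19 of the 59, 1 to 3 reads in 28 and more than 3 in 12. Worker 2 had 0 reads in 11, 1 to 3 in 25 and more than 3 in 23. The workers' levels of most members are therefore known only to within a few reads, while the queen's levels are known closely. Intervals cover counting error only, and bounds leave out the counting error of the queen's reads. Reads are not independent molecules, and the recovered reads are the smallest whole numbers that the values allow.

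Ratios here use the levels as deposited. Against worker 1, the 40 members with at least 1 read there had a median ratio of 182-fold, from 43.1 to 1567. The lower bound of the 95% interval was at least 20-fold for 37 of these 40, and the lowest bound was 7.58-fold. Against worker 2, the 48 members with a read there had a median ratio of 173-fold, from 51.5 to 1479. The lower bound was at least 20-fold for 45 of these 48, and the lowest was 12.4-fold. The rule already places each member's ratio above 40-fold, and the intervals do not allow for that choice. Counts at this bound therefore describe how many reads the members had and are no test of the gap. For members at 0 the bounds were from at least 6.85-fold to at least 173-fold against worker 1 (19 members), and from at least 14.1-fold to at least 2151-fold against worker 2 (11 members). The smallest bounds belonged to Cflo_15791 and Cflo_16110, at 23.5 and 23.4 RPKM in the queen, which had 52 and 53 queen reads. For these members the depth of worker 1 does not show a gap as wide as the rule's RPKM values state. Other members at 0 in worker 1 also had bounds under 40-fold, such as Cflo_16628 at 11.5-fold and Cflo_04229 at 36.9-fold, though some exceeded it. Against worker 2 the bounds of Cflo_15791 and Cflo_16110 were 14.1-fold and 14.4-fold, also under 40-fold. After median-of-ratios scaling the median ratio was 20.7-fold against worker 1, from 4.90 to 178, and the lower bound was at least 20-fold for 3 of the 40. Against worker 2 it was 85.7-fold, from 25.6 to 734, with 38 of the 48 at that bound. The summed level of all 65 members stood 350-fold above worker 1 as deposited and 39.8-fold after scaling, and 317-fold and 158-fold above worker 2. The size of the gap to worker 1 thus depends on the scaling far more than that to worker 2.

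**Figure D3:**
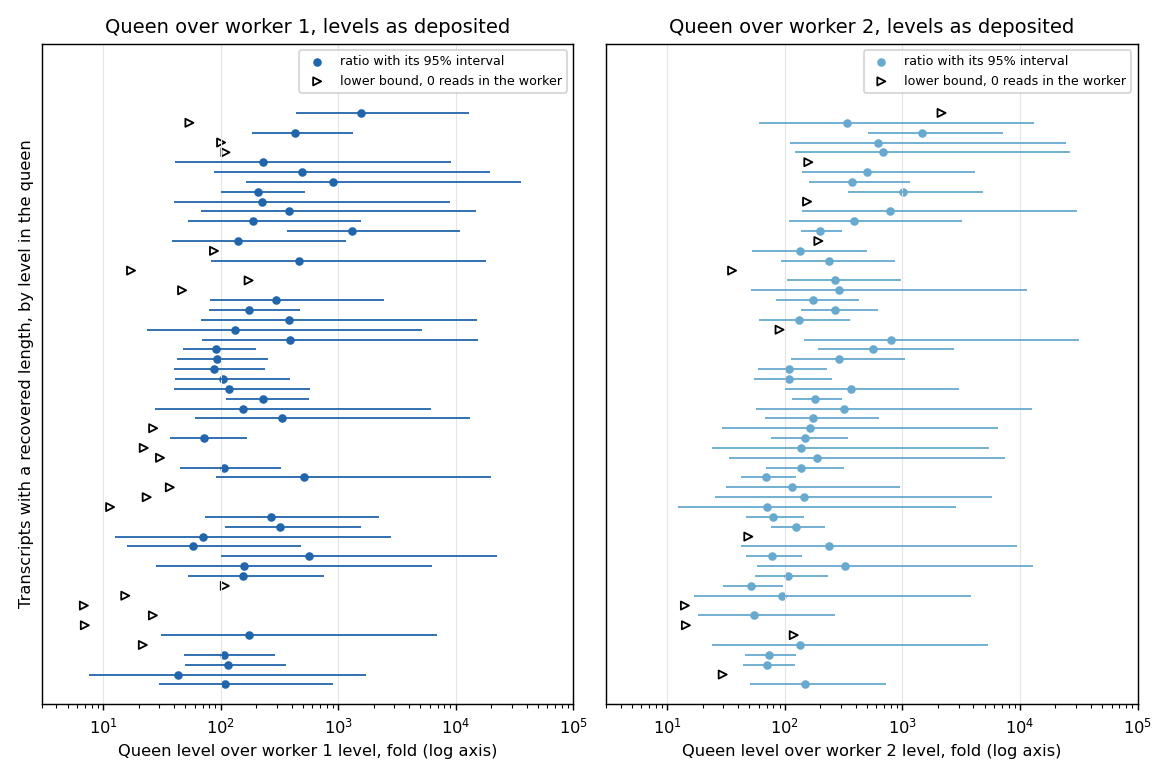
The ratio of the queen's level to that of worker 1 (left), both as deposited, and worker 2 (right) for the 59 members with a recovered length, on log axes and in the order of the queen's level. Points are ratios with their 95% interval from counting, and open triangles are lower bounds where the worker had 0 reads; the median ratios were 182-fold and 173-fold.

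The thresholds cut through a continuous range. Just inside the queen's minimum lay Cflo_02732 at 20.3 RPKM, Cflo_16006 at 20.5 and Cflo_11947 at 22.0. Just outside lay Cflo_15463 at 19.6 RPKM, Cflo_10402 at 19.3 and Cflo_02816 at 19.0, of which the first and the last were at 0 in both workers. Just inside the worker limit lay Cflo_15395, with 0.496 RPKM in worker 1, Cflo_15552, with 0.492 in worker 2, and Cflo_12793, with 0.476 in worker 1. Just outside lay Cflo_00321, with 0.537 RPKM in worker 1, Cflo_07249, with 0.540 in worker 2, and Cflo_01552, with 0.547 in worker 2. In Cflo_15395 the worker 1 value came from 2 reads. Values this close to the limit rest on so few reads that members and near misses overlap within counting error there. Cflo_05659, named after its values were seen, would lead the list at 874 RPKM in the queen, but its 0.584 RPKM in worker 1 (11 reads) kept it out.

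As deposited, both workers held traces of the members at similar summed levels. Worker 1 was higher in 26 members and worker 2 in 30. The summed level in worker 1 was 0.905 of that in worker 2, and pooled reads per library total gave a ratio of 0.850 (95% interval 0.679 to 1.06, counting error only, as 1 animal against 1). Among the 32 members above 0 in both workers worker 1 over worker 2 had a median of 0.17 as a log2 ratio. Over the features above 0 in every library whose mean reached 1 RPKM this median was -2.15. The limit of 0.5 RPKM holds both workers down, so other transcripts under the same limit are the closer comparison: in 395 transcripts with 1 to 20 RPKM in the queen and both workers under 0.5 RPKM, the summed level of worker 1 was 0.350 of that of worker 2. After median-of-ratios scaling, which raises worker 1, the members' ratio turned to 3.95, and after rescaling without the 20 most abundant features to 1.32. Each scaling changes all transcripts of a library by 1 factor, so it shifts the ratio of the 395 by as much as that of the members.

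The widest gaps towards worker 2, as deposited, were in Cflo_07378, Cflo_12613 and Cflo_06949. Cflo_07378 was at 24.3 RPKM in the queen, against 0 for worker 1 and 0.471 for worker 2, from 0 and 13 worker reads. Cflo_12613 was at 70.5 RPKM in the queen, against 0.0536 for worker 1 and 0.351 for worker 2, from 2 and 27 worker reads. Cflo_06949 was at 31.5 RPKM in the queen, against 0.0620 for worker 1 and 0.452 for worker 2, from 1 and 15 worker reads. These members were picked for their gaps, 1 animal stood against 1, and no test was made. After median-of-ratios scaling the gaps narrowed in Cflo_12613, at 0.185 scaled RPKM in worker 1 and 0.277 in worker 2, and in Cflo_06949, at 0.214 and 0.357. Cflo_07378 stayed at 0 in worker 1, against 0.372 in worker 2. The widest gaps towards worker 1, in Cflo_09871, Cflo_15395 and Cflo_14988, rested on 2, 2 and 1 reads against 0, and Cflo_14988 shared its gap with other members of 1 read against 0. The same scaling widened these 3 gaps, to 1.32, 1.71 and 1.34 scaled RPKM in worker 1 against 0 in worker 2.

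The members included many transcripts with a short recovered length. Their median recovered length was 883 bases over 59 members, with a range from 131 to 6175, against 1549 bases over 3976 of the 4002 transcripts with at least 20 RPKM in the queen. The 95% interval of the members' median, from 590 to 1587 bases, took in that value. It treats selected members as a random sample and leaves out those without a length, so it decides nothing about the difference. Of the 59, 19 were under 500 bases (32.2%), against 8.58% of the 3976. With a value in the queen alone, only a short length could be accepted. Of the 9 members at 0 in both workers, 3 had a length, from 131 to 134 bases, and 6 had none. The members' lengths can therefore lean short through the recovery, to an extent that was not tested. Recovered lengths can be too short by a whole factor. On simulated features this befell 12.2% at the members' levels and 7.8% of those above 1 RPKM in the queen. These simulated sets also differed in their range of lengths, so they do not compare read numbers alone. The part of this error in the members' short lengths was not tested. The shortest were Cflo_15791 at 131 bases, Cflo_16110 and Cflo_16686 at 134, Cflo_15492 at 155 and Cflo_16628 at 173. The longest were Cflo_02438 at 6175 bases, Cflo_12613 at 5578, Cflo_08692 at 5144, Cflo_06396 at 4162 and Cflo_03901 at 3902. All 5 of the longest had reads in both workers, from 2 to 7 in worker 1 and from 16 to 27 in worker 2.

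Length sets how a worker value can look. In a transcript under 299 bases a single read in worker 1 is worth over 0.5 RPKM, and under 145 bases the same holds in worker 2. In 7 of the 59 members 1 read in worker 1 would have broken the limit, and in 3 of these 1 read in worker 2 as well. None of the 19 members under 500 bases was above 0 in both workers (0 of 19), while 32 of the 40 longer members were. The 19 short members held 5520 queen reads, 5 reads of worker 1 and 11 of worker 2, and the 40 longer ones 67663, 111 and 270. Lengths were recovered from the values above 0, so the length classes are not independent of the workers' zeros. The contrast of 0 of 19 with 32 of 40 can be partly built in by this. The part of length in the members' silence was not tested.

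**Figure D4:**
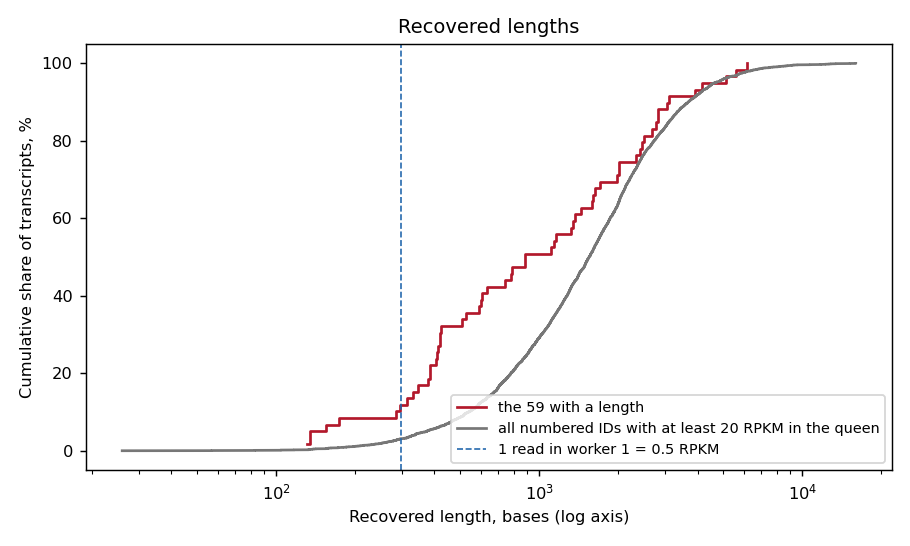
Cumulative share of transcripts by recovered length in bases (log axis), for the 59 members with a length (red) and for all numbered transcripts with at least 20 RPKM in the queen (grey). The dashed line marks 299 bases, below which 1 read in worker 1 exceeds 0.5 RPKM; the red curve lies to the left of the grey one, with medians of 883 and 1549 bases.

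Members were unevenly spread over the ID numbers, which the rule did not use. In blocks of 1000 numbers, a division made after the values were seen, the share of members among transcripts with at least 20 RPKM in the queen lay between 0% and 2.65% in each block up to 13999. It was 5.41% from 14000 to 14999 (4 of 74), 27.1% from 15000 to 15999 (16 of 59) and 15.4% from 16000 on (4 of 26). IDs of 15000 and over thus supplied 20 of the 65 members (30.8%), but 85 of the 4002 transcripts with at least 20 RPKM in the queen (2.12%). What sets the order of the numbers is not given in the sources used here.

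**Figure D5:**
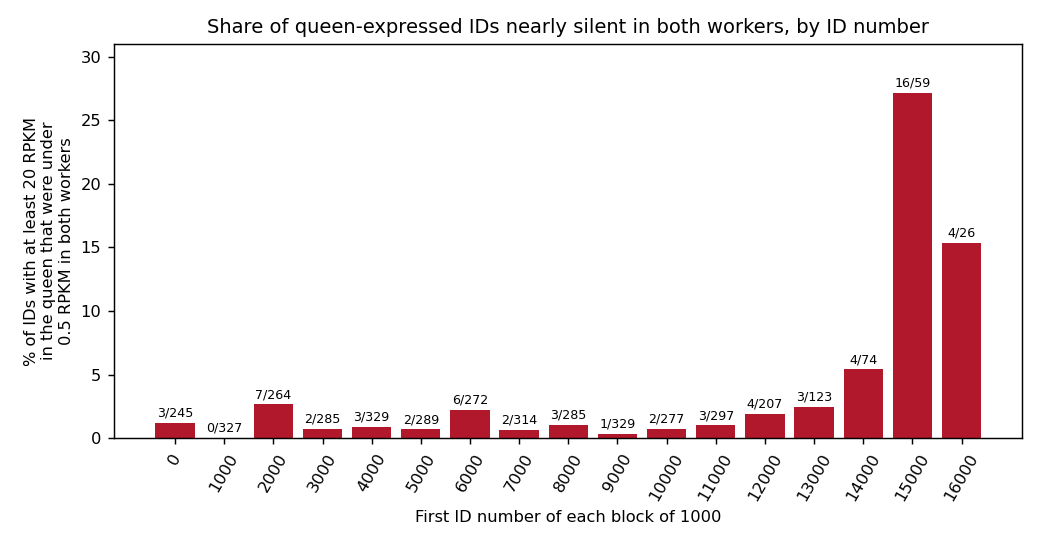
For each block of 1000 ID numbers, the bar gives the percentage of transcripts with at least 20 RPKM in the queen that were under 0.5 RPKM in both workers, with the counts above it. The bars stay at or below 2.65% up to 13999 and reach 27.1% from 15000 to 15999.

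Length and the share of silent IDs also moved with the numbers. The median recovered length was 1304 bases from 12000 to 12999, 998 from 13000, 738 from 14000, 617 from 15000 and 323 from 16000 on. IDs at 0 in all 3 libraries made up 33.4%, 45.2%, 53.4%, 48.9% and 68.1% of these blocks, so this share was already high in blocks with few members. Among transcripts under 500 bases with at least 20 RPKM in the queen, 15 of the 45 numbered 15000 and over were members (33.3%), against 4 of 296 with lower numbers (1.35%). This split was made after the values were seen, and lengths within the class were not matched. The part of length in the uneven spread was not tested. These 45 had medians of 45.8 RPKM in the queen, against 0.662 for worker 1 and 0.589 for worker 2. In the 296 it was 43.8 RPKM in the queen, against 14.2 for worker 1 and 23.2 for worker 2. The rule fixes the workers' values of the members among them, so the values without members are given too. The 30 non-members numbered 15000 and over had medians of 47.9 RPKM in the queen, against 1.48 for worker 1 and 7.46 for worker 2, and the 292 with lower numbers 43.8, 14.6 and 23.4 RPKM. At least 4-fold above both workers were 16 of the 30 (53.3%) and 59 of the 292 (20.2%), against 68.9% and 21.3% with members included. Transcripts are not replicates, and no test was made of this.

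Of the 20 members numbered 15000 and over, 1 was above 0 in both workers, Cflo_15021, the longest of them at 1339 bases, with 37.4 RPKM in the queen, against 0.112 for worker 1 and 0.217 for worker 2. The 41 members numbered under 14000 were longer. Their median recovered length was 1701 bases, close to the 1595 bases of all transcripts in that range with at least 20 RPKM in the queen, and 29 of the 41 were above 0 in both workers.

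Some members had close numbers. Within 5 ID numbers of another member lay 8 of the 65 (12.3%), against 122 of the 3937 other transcripts with at least 20 RPKM in the queen (3.10%). They formed 4 pairs. Cflo_14988 with Cflo_14989, and Cflo_15952 with Cflo_15955, lay in blocks with high shares of members (5.41% and 27.1%). The 3.10% was not matched for this uneven spread. Cflo_00606 was at 71.8 RPKM in the queen, against 0.378 for worker 1 and 0.184 for worker 2, and Cflo_00607 at 59.5, 0.129 and 0.251 RPKM in the same order. These consecutive members were alike in the queen and were represented by 1 to 4 reads in each worker.

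Cflo_02438 was at 38.5 RPKM in the queen, against 0.169 for worker 1 and 0.212 for worker 2, and lay 3 numbers from Cflo_02441. The numbers between them did not share the pattern: Cflo_02439 was at 14.9 RPKM in the queen, against 5.18 for worker 1 and 14.9 for worker 2, and Cflo_02440 at 12.1, 1.18 and 3.99 RPKM. Cflo_14989 was at 36.1 RPKM in the queen, against 0 for worker 1 and 0.219 for worker 2, next to Cflo_14988. Cflo_15952 was at 33.7 RPKM in the queen, against 0 for worker 1 and 0.246 for worker 2, and lay 3 numbers from Cflo_15955, with both IDs between them at 0 in all 3 libraries. Whether paired members share sequence, and so reads, could not be examined without sequences.

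The transcripts listed next to members by number, 126 in all, were compared with all numbered transcripts. Over the 126 the median was 0.504 RPKM in the queen, against 0 for worker 1 and 0.598 for worker 2, while over all numbered transcripts the queen's median was 2.20 RPKM and that of worker 2 was 2.05. In the queen 32 of the 126 reached 20 RPKM (25.4%), close to the 24.0% of all numbered transcripts. Of these 32, 21 were at least 4-fold above both workers (65.6%), against 38.2% of all numbered transcripts with at least 20 RPKM in the queen. That share was 61.2% at numbers of 15000 and over and 37.7% at lower numbers. The 38.2%, 61.2% and 37.7% include members, which the rule places above both workers. Members were 20 of the 85 transcripts at the high numbers and 45 of the 3917 at the lower ones. The 32 hold no members, so the shares are not like for like. Members, and so the transcripts next to them, were more frequent at high numbers, where IDs at 0 in all libraries were also frequent. The comparisons were not matched for this, and an effect of lying next to a member was not tested.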

How the data were processed

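Whole-body poly(A) RNA of 1 queen and 2 workers was sequenced in strand-specific libraries. The authors deposited 1 table of RPKM values with a column per library and 17323 features. The submitters' processing notes list STAR 2.5.0b, a read aligner, without its role. The build, annotation, counting tool and strand setting were not given in the sources used here, so reads of overlapping or near-identical genes may be split or shared. The labels do not say whether the animals came from the same colony. The workers also differed in type, depth and composition, so the sources of the spread between them, technical ones included, cannot be told apart.

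Totals, lengths and reads were inferred from the whole-read steps of the deposited RPKM values with Python 3.11.15 and NumPy 2.4.6. For each feature the shortest length from 20 to 30000 bases giving whole reads in every library within rounding was accepted if under 0.05 matches were expected by chance; 59 of the 65 members had one. The true length can be a multiple, with reads multiplied alike. On simulated features true lengths came back less often, and lengths too short by a whole factor more often, at the members' levels than for features above 1 RPKM in the queen. The lengths simulated for these sets also differed in range. Ratios carry exact (Clopper-Pearson) 95% intervals from SciPy 1.17.1, and 0 reads were set at 3 per library for bounds.

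The rule uses all libraries, so queen and workers were not tested. The members, lists and divisions were chosen with earlier results of these data known. Named members are the 10 highest in the queen, the 5 highest at 0 in both workers, the 3 nearest each threshold, pairs within 5 numbers, the 5 shortest and longest, and the 3 widest worker gaps each way. A list of egg formation genes gave no values, as no ID carries a name. Differences are on log2(RPKM + 1), which understates low values. Alternatives were other thresholds, scalings, pseudocounts, windows and leaving out a worker.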

Additional observations from a re-analysis of the deposited data

How the results depend on the processing

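The count of 65 members was 132 with a queen minimum of 10 RPKM, 28 with 40 RPKM, 30 with a worker limit of 0.25 RPKM and 126 with 1 RPKM. It was 13 after median-of-ratios scaling, 38 when rescaled without the top 20 features and 79 with each library summing to 1000000, of which 12, 38 and 22 were among the 65. Leaving out a worker gave from 90 to 366. It was 67 over all ID classes and 56 with at least 100 queen reads. Members at 0 in both workers, 9, were 22 with a minimum of 10 RPKM and 3 with 40, and from 23 to 60 with a worker left out. The median length stayed within the interval of 590 to 1587 bases under the 4 other thresholds. Members near another member, 8, were 4 with a window of 1 number, 11 with 10, and 19 and 2 with queen minimums of 10 and 40 RPKM. The median log2 difference, 5.03, was 7.44 with a pseudocount of 0.1 and 3.05 with 5, 3.58 after median-of-ratios scaling, 4.61 when rescaled without the top 20 features, 6.18 with sums of 1000000, and from 4.93 to 4.97 with a worker left out. The ratio of worker 1 to worker 2, 0.905, reversed to 3.95 and 1.32 under the first 2 scalings and was 0.670 with sums of 1000000; the members' summed level in the queen stood 350-fold above worker 1 and 317-fold above worker 2, or 39.8-fold and 158-fold after median-of-ratios scaling; these settings for the ratios were chosen after seeing the data, and the cause was not tested. The 33 named members stayed higher in the queen under all 7 settings run for them, which the rule largely fixes. No paired analysis was possible because the queen and the workers share only replicate number 1. Depth limits short members most: under 299 bases 1 read in worker 1 exceeds the limit.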

Other observations

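Outside the numbered IDs, 2 features met both thresholds. Cflo_11093-3 was at 214 RPKM in the queen, against 0.110 for worker 1 and 0.0535 for worker 2, from 4911, 1 and 1 reads at a recovered length of 1358 bases. Cflo_snRNA9 stood at 52.4 RPKM in the queen, against 0 for worker 1 and 0.376 for worker 2, the latter from 1 read. Cflo_11093-3 stood above every member but Cflo_09871 in the queen. The number in its ID is the one before that of a member, Cflo_11094, which was at 33.4 RPKM in the queen, against 0 for worker 1 and 0.178 for worker 2.

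The rule turned round, with both workers at 20 RPKM or more and the queen under 0.5 RPKM, held for 12 of the 16701 numbered transcripts. Only 854 of these reached 20 RPKM in worker 1 and 1884 in worker 2, against 4002 in the queen. The counts of 12 and 65 thus come from unlike numbers of eligible transcripts and are not compared. Among the 59 members with a length, 4 pairs shared the same recovered length: Cflo_16110 and Cflo_16686 at 134 bases, Cflo_14988 and Cflo_15909 at 386, Cflo_15529 and Cflo_15955 at 421, and Cflo_07378 and Cflo_10586 at 2004. These pairs were noticed after the values were seen, and their queen levels differed within each pair, with 23.2 RPKM in Cflo_15529 and 117 RPKM in Cflo_15955.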
